A study of Homo sapiens with 12 samples.

Results

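The subject is 44 DNA replication and G1/S genes, which were picked by gene symbol from the 26364 rows of the deposited count table. The rule for picking them uses no measured value, but the list was drawn up with earlier results of these data known. They cover origin licensing, helicase activation, DNA polymerases, the sliding clamp and its loader, nucleotide synthesis, chromatin assembly and E2F regulation. The RNA came from wells of the established breast cancer line MDA-MB-231, which lacks estrogen receptor, progesterone receptor and amplified HER2. Wells received 1 µM dexamethasone (DEX), a glucocorticoid that activates the glucocorticoid receptor, together with 8 µM SH4-54, a compound that blocks the transcription factors STAT3 and STAT5, or DEX alone, SH4-54 alone or no drug, and were kept so for 24 h. There were 3 wells in each of the 4 groups, and p-values therefore speak of well-to-well spread. A vehicle for the no-drug wells is not named in the sources at hand, and 1 label field writes SH4-54 as SH5-54.

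In G1, the origin recognition complex, CDC6 and CDT1 load the ring-shaped MCM helicase onto replication origins. At the start of S phase MCM10, CDC45 and the GINS complex turn the loaded ring into a moving helicase, and primase and the replicative polymerases copy DNA on the clamp PCNA, which the RFC complex loads. E2F transcription factors switch most of these genes on as cells pass from G1 into S. In bulk RNA, fewer cells in that stage and less RNA per cell cannot be told apart.

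Promoters are printed for 5 members whose RNA carries the results below. MCM6 was the member that rose with DEX, DTL and RFC5 were among the members that fell most with DEX, and CDT1 and CDC25A were the members that rose when both compounds were given, against every other group. Each is the RefSeq sequence from 250 bases before to 50 bases after the gene start (GRCh38.p14), written 5′ to 3′ on the gene's strand. Capitals mark matches to the E2F site letters TTTCCCGC, TTTGGCGC, TTTCGCGC or TTTGCCGC on either strand, and matches that overlap run together.
MCM6, chr2:135876394-135876693, minus strand: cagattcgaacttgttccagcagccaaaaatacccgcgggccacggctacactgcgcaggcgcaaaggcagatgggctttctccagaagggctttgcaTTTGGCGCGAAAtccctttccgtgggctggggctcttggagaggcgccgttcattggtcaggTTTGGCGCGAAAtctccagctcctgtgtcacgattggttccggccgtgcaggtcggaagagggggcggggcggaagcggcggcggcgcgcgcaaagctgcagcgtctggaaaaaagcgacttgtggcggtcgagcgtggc
DTL, chr1:212035498-212035797, plus strand: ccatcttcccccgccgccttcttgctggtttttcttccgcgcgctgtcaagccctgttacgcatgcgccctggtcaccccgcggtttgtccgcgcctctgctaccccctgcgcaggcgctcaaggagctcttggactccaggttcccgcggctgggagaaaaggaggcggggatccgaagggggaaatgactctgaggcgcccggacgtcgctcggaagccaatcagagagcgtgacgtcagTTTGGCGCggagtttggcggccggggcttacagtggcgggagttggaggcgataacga
RFC5, chr12:118016453-118016752, plus strand: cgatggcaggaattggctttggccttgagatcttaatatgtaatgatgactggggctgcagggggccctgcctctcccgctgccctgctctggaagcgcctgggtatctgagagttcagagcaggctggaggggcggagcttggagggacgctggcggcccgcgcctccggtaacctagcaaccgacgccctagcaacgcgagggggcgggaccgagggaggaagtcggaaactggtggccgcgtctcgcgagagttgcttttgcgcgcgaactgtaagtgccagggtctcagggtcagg
CDT1, chr16:88803539-88803838, plus strand: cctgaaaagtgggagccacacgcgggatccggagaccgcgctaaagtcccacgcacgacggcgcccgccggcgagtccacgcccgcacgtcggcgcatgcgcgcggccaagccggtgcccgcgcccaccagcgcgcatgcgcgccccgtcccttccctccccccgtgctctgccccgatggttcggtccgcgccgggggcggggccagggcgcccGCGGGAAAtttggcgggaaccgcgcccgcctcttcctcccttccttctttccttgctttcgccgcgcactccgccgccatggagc
CDC25A, chr3:48188368-48188667, minus strand: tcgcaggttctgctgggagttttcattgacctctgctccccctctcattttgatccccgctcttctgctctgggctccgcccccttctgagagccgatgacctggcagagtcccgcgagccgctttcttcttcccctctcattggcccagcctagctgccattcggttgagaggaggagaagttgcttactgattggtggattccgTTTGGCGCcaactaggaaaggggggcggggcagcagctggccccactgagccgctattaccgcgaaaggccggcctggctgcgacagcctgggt
RFC5 has no match in this window, MCM6 has overlapping pairs of matches at 2 places, and the others have 1 match each. RefSeq promoters were found for 39 of the 44 members. E2F letters stood in 22 of these 39 (56.4%), against 908 of all 27305 promoters (3.33%). The CCAAT letters, which NF-Y binds, stood on either strand in 23 of 39 (59%), against 35.7% of all promoters. A full palindromic glucocorticoid response element stood in 0 of 39 and in 1 of all promoters (0.00366%). At that rarity the search could not tell members from other promoters. The STAT letters TTCNNNGAA stood in 2 of 39 (5.13%), against 7.88% of all. E2F letters were held by 1 of 1 member that rose with DEX, by 11 of 21 that fell and by 10 of 17 with no call. A match is a run of letters, and binding was not measured.

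Counted reads per library ranged from 25577213 to 35758236, and the 44 members took 0.473% to 0.541% of them. All 44 members passed the count filter, with 14184 genes tested in all. Levels are given as CPM, read counts scaled to library size and composition, and differences as log2 fold changes ± standard error. A gene was called where its adjusted p was below 0.05. Of the line's markers, VIM, CD44, EGFR and AXL summed to 2320 to 2700 CPM in DEX+SH4-54 wells, 1930 to 2050 CPM in DEX wells, 2730 to 2910 CPM in SH4-54 wells and 2750 to 2800 CPM in no-drug wells. The 5 luminal and epithelial markers summed to 12.1 to 18.2 CPM in DEX+SH4-54 wells, 20.3 to 22.4 CPM in DEX wells, 18.1 to 19.5 CPM in SH4-54 wells and 18.9 to 21.9 CPM in no-drug wells, with ESR1, the estrogen receptor, too low to be tested. The 5 immune and endothelial markers summed to 48 to 53.1 CPM in DEX+SH4-54 wells, 35.8 to 39 CPM in DEX wells, 47.6 to 48 CPM in SH4-54 wells and 42.1 to 44.6 CPM in no-drug wells. CD68 carried most of that sum, and the other 4 (CD3E, PTPRC, PECAM1 and VWF) were near 0. The sum of the line's markers and that of the immune and endothelial markers were lower in DEX wells than in all other wells. The line's markers did not move together. With DEX against no drug the log2 fold changes were -0.64 for VIM, -0.62 for CD44 and -0.43 for AXL, but 0.57 for EGFR. The part of these markers in the members' changes was not tested.

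Summed over the 44 members, RNA reached 5179, 5279 and 4868 CPM in DEX+SH4-54 wells, 4766, 4868 and 4849 CPM in DEX wells, 5275, 5310 and 5305 CPM in SH4-54 wells and 5141, 5367 and 5410 CPM in no-drug wells. The DEX wells were lowest, combination replicate 3 stood level with the highest DEX well, and the SH4-54 and no-drug wells overlapped. Combination replicate 2 was the highest of its group for 31 of the 44 members and combination replicate 3 the lowest for 38. The median coefficient of variation of a member over 3 wells was 5.22% in DEX+SH4-54 wells, 2.23% in DEX wells, 2.37% in SH4-54 wells and 3.11% in no-drug wells.

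**Figure D1:**
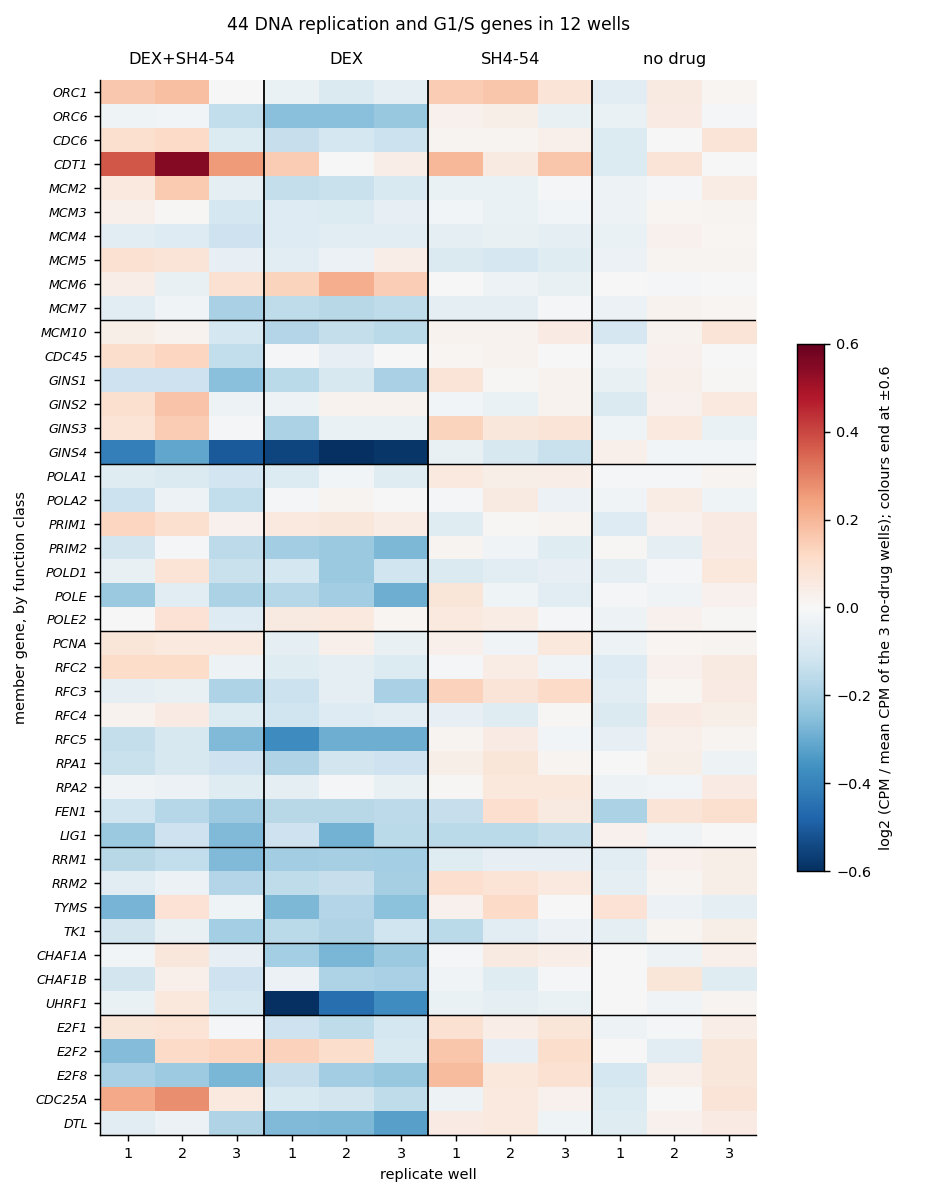
Each row is 1 of the 44 members and each column 1 well; colour gives log2 of the CPM over the mean CPM of the 3 no-drug wells, and colours end at ±0.6. The DEX columns are blue for most members, most of all for GINS4 and UHRF1, with MCM6 red, and in the DEX+SH4-54 columns replicate 3 is bluer than replicates 1 and 2.

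The first question was how replication genes stood after DEX alone, set against wells without drug. With DEX, 23 of the 44 members fell and 1 rose, where 23.2% of all tested genes fell and 21.9% rose. The falls were small. The median log2 fold change of the members was -0.127, against -0.011 over all tested genes. The 5 largest falls were those of UHRF1 (-0.68), which brings the maintenance DNA methyltransferase to new DNA, GINS4 (-0.59), a subunit of the GINS complex, RFC5 (-0.32), a clamp loader subunit, DTL (-0.29), the substrate receptor that marks CDT1 for destruction, and ORC6 (-0.24), a subunit of the origin recognition complex. The place of UHRF1 rests on DEX replicate 1, without which it stood at -0.41 and GINS4 at -0.61. The rise was that of MCM6 (0.17), a subunit of the helicase ring. In 27 members every DEX well lay below every no-drug well, and in 1 every DEX well lay above, where 28.9% and 27.2% of all tested genes did so. Of the 24 calls, 16 held in every alternative tried. Those of CDC6, MCM2, MCM10, GINS1, POLD1, RFC3, TYMS and E2F8 were lost in at least 1.

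The comparison of both compounds with DEX asked what SH4-54 added to the glucocorticoid. When SH4-54 was added, 15 members rose and 1 fell, where 13% of all tested genes rose and 13.5% fell. The median log2 fold change of the members was 0.071, against 0.005 over all tested genes. Named in order of size, the 5 largest rises were those of UHRF1 (0.66), CDT1 (0.33), a loader of the helicase ring, CDC25A (0.31), the phosphatase that activates the cyclin-dependent kinases of S phase entry, CHAF1A (0.23), a histone chaperone, and DTL (0.19). The fall was that of MCM6 (-0.13). Wells did not overlap for 17 members with DEX+SH4-54 higher and 2 with it lower, where 19.6% and 20.3% of all tested genes did not. This count leaned on single wells. Without combination replicate 2 it was 8 rises and 0 falls, without DEX replicate 2 it was 0 falls and without combination replicate 3 it was 20 rises. Counts over all tested genes moved too, from 1067 to 2026 rises and 1146 to 2607 falls with a library left out. With all libraries they were 1851 and 1919. Of the 16 calls, 8 held in every alternative, those of ORC6, CDT1, MCM2, CHAF1A, UHRF1, E2F1, CDC25A and DTL.

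**Figure D2:**
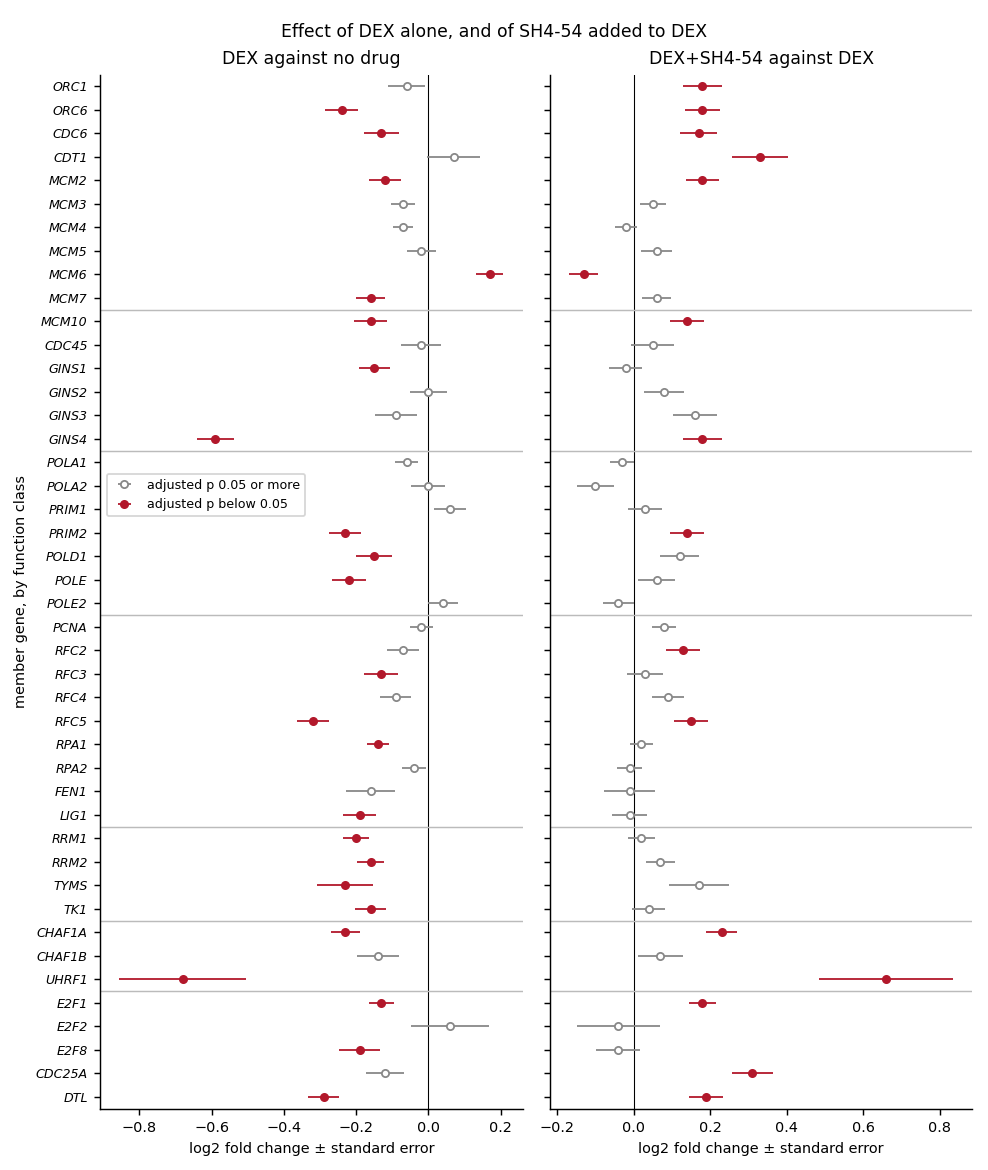
Points are log2 fold changes of the 44 members and bars their standard errors, with DEX against no drug on the left and DEX+SH4-54 against DEX on the right; filled points have an adjusted p below 0.05. On the left 23 filled points lie below 0 and MCM6 above it, and on the right 15 lie above 0 and MCM6 below it.

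These comparisons share the DEX wells, and their values are only set side by side. DEX+SH4-54 against SH4-54 shares no well with DEX against no drug, and gives the effect of DEX in the presence of SH4-54. In it 13 members fell and 3 rose (CDT1 0.25, CDC25A 0.17 and MCM5 0.13), where 20.3% of all tested genes fell and 20.1% rose. The 5 largest falls were those of E2F8 (-0.35), a repressor of the E2F family, GINS4 (-0.32), RFC3 (-0.21), GINS1 (-0.20) and FEN1 (-0.18), the nuclease that trims Okazaki fragments. Of the 23 members that fell with DEX alone, 10 (43.5%) also fell with DEX in the presence of SH4-54, and these were 76.9% of the 13. Over all tested genes the shares were 63.8% and 72.9%. The 10 were GINS1, GINS4, POLE, RFC3, RFC5, RPA1, RRM1, RRM2, E2F8 and DTL. FEN1, DTL and RPA2 lost their call against SH4-54 in 10 or more of the 19 alternatives, and the rises numbered 0 without combination replicate 2, 1 without combination replicate 1 or SH4-54 replicate 2, and 6 without combination replicate 3. Over all tested genes, fits with a library left out gave 2400 to 2820 rises and 2446 to 3048 falls, against 2854 and 2882. Wells did not overlap for 12 members with DEX+SH4-54 lower and 3 with it higher, where 24.2% and 24.3% of all tested genes did not.

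Against no drug, DEX+SH4-54 wells had 11 members lower and 2 higher, where 21.6% and 21.1% of all tested genes were. The 2 that rose were CDT1 (0.40) and CDC25A (0.19), and the largest falls were those of GINS4 (-0.41), E2F8 (-0.23), LIG1 (-0.20), the DNA ligase of the lagging strand, RRM1 (-0.19), the large subunit of ribonucleotide reductase, and RFC5 (-0.17). Wells did not overlap for 11 members with DEX+SH4-54 lower and 2 with it higher, where 26% and 25.4% of all tested genes did not. Without no-drug replicate 3 the number of falls was 7, and the number of rises was 7 without combination replicate 3 and 1 without no-drug replicate 1. Over all tested genes, fits with a library left out gave 2491 to 3079 rises and 2650 to 3154 falls, against 2992 and 3059.

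SH4-54 alone gave 0 calls among the 44 members, by edgeR and by DESeq2, where 0.268% of all tested genes rose and 0.331% fell. At an unadjusted p under 0.05 there were 4, those of ORC1 (0.13), MCM5 (-0.09), RFC3 (0.11) and LIG1 (-0.16), where 13.1% of all tested genes had such a p, more than the members' share, and the smallest adjusted p was 0.158. The 95% intervals of the 44 log2 fold changes lay between -0.41 and 0.32. The widest interval was that of UHRF1. Wells did not overlap for 6 members with SH4-54 higher and 5 with it lower, where 9.13% and 12.1% of all tested genes did not. The absence of calls does not show that levels were the same.

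**Figure D3:**
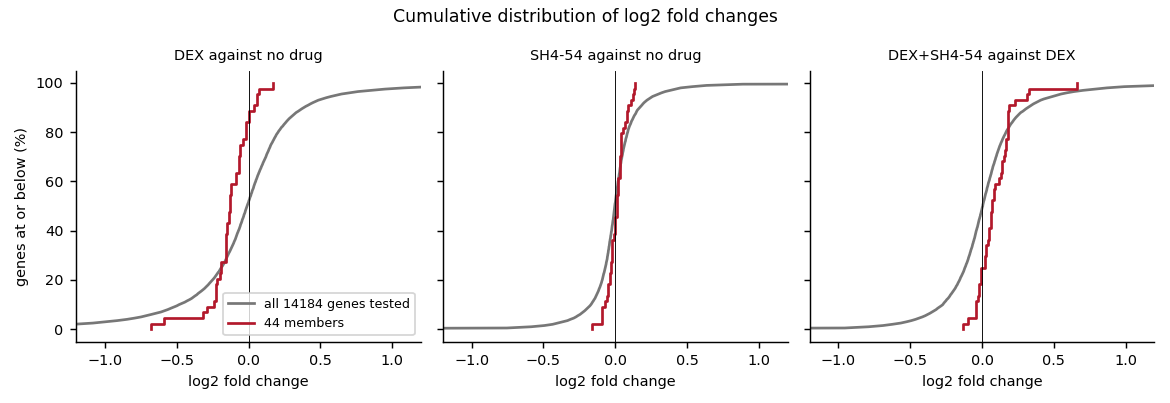
Curves give the share of genes (percent) at or below a log2 fold change, red for the 44 members and grey for all 14184 tested genes, in 3 comparisons. The red curve lies left of the grey one over its upper part for DEX against no drug, near it for SH4-54 against no drug, and right of it over its lower part for DEX+SH4-54 against DEX.

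The counts by class below stand beside all tested genes, of which 23.2% fell and 21.9% rose with DEX. When SH4-54 was added to DEX, 13% of all tested genes rose and 13.5% fell. Among the 10 licensing genes, 4 fell with DEX (ORC6, CDC6, MCM2 and MCM7) and MCM6 rose. Of the same 10 genes, 5 rose when SH4-54 was added (ORC1, ORC6, CDC6, CDT1 and MCM2). ORC6 stood at 41.6, 41.8 and 38.2 CPM in DEX+SH4-54 wells, 35.6, 35.6 and 36.1 CPM in DEX wells, 43.1, 43.3 and 41 CPM in SH4-54 wells and 41.1, 43.7 and 42.1 CPM in no-drug wells. Every DEX well lay below every other well. ORC6 had a log2 fold change of -0.24 ± 0.045 (edgeR adjusted p = 0.00051) for DEX against no drug and 0.18 ± 0.046 (edgeR adjusted p = 0.0106) for DEX+SH4-54 against DEX. ORC1, another subunit of the complex, stood at 44.8, 45.3 and 40.1 CPM in DEX+SH4-54 wells, 38.9, 37.7 and 38.5 CPM in DEX wells, 44.5, 44.9 and 42.3 CPM in SH4-54 wells and 38.2, 41.6 and 40.3 CPM in no-drug wells. The DEX and no-drug wells overlapped, and the DEX+SH4-54 wells all lay above the DEX wells (log2 fold change 0.18 ± 0.052, edgeR adjusted p = 0.0218).

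CDC6 and CDT1 bring the helicase ring to the origin recognition complex. CDC6 stood at 220, 223 and 194 CPM in DEX+SH4-54 wells, 187, 191 and 188 CPM in DEX wells, 208, 208 and 210 CPM in SH4-54 wells and 194, 206 and 217 CPM in no-drug wells. Its DEX wells lay below the others. Against no drug the log2 fold change was -0.13 ± 0.049 (edgeR adjusted p = 0.0474), a call lost in 13 of 19 alternatives, and DEX+SH4-54 lay above DEX (log2 fold change 0.17 ± 0.049, edgeR adjusted p = 0.0203). CDT1 stood at 24.8, 28.1 and 22.9 CPM in DEX+SH4-54 wells, 21.3, 19.2 and 19.7 CPM in DEX wells, 22, 19.9 and 21.5 CPM in SH4-54 wells and 18.1, 20.2 and 19.2 CPM in no-drug wells. All DEX+SH4-54 wells lay above all others, whereas DEX and no-drug wells overlapped. For CDT1 the log2 fold change was 0.07 ± 0.074 (edgeR adjusted p = 0.507) for DEX against no drug, 0.33 ± 0.073 (edgeR adjusted p = 0.00457) for DEX+SH4-54 against DEX, 0.25 ± 0.073 (edgeR adjusted p = 0.0117) against SH4-54 and 0.40 ± 0.073 (edgeR adjusted p = 0.000465) against no drug. The call against SH4-54 was lost without combination replicate 2 and without SH4-54 replicate 2.

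Of the 6 subunits of the MCM ring, MCM2 and MCM7 fell with DEX, MCM6 rose and the others had no call. MCM6 stood at 129, 122 and 134 CPM in DEX+SH4-54 wells, 138, 146 and 139 CPM in DEX wells, 126, 123 and 122 CPM in SH4-54 wells and 126, 125 and 126 CPM in no-drug wells. The DEX wells were the highest, and the DEX+SH4-54 wells overlapped the SH4-54 and no-drug wells. The log2 fold change was 0.17 ± 0.038 (edgeR adjusted p = 0.00206) for DEX against no drug and -0.13 ± 0.038 (edgeR adjusted p = 0.0171) for DEX+SH4-54 against DEX. MCM2 stood at 185, 198 and 171 CPM in DEX+SH4-54 wells, 161, 162 and 167 CPM in DEX wells, 173, 173 and 176 CPM in SH4-54 wells and 174, 176 and 183 CPM in no-drug wells. It fell with DEX (log2 fold change -0.12 ± 0.043, edgeR adjusted p = 0.0331) and rose when SH4-54 was added (log2 fold change 0.18 ± 0.044, edgeR adjusted p = 0.00868). MCM7 fell with DEX (log2 fold change -0.16 ± 0.039, edgeR adjusted p = 0.00394). MCM3, MCM4 and MCM5 had log2 fold changes of -0.07, -0.07 and -0.02 with DEX and did not pass.

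Of the counts of MCM2 to MCM7, MCM6 made up 9.62, 9 and 10.7% in DEX+SH4-54 wells, 10.8, 11.4 and 10.7% in DEX wells, 9.68, 9.48 and 9.24% in SH4-54 wells and 9.58, 9.19 and 9.24% in no-drug wells. The DEX wells were above all SH4-54 and no-drug wells, and 1 combination well came close to the lowest of them. The exact permutation test of this share gave p = 0.1 for DEX against no drug, the smallest that 3 wells against 3 allow, p = 0.1 for DEX+SH4-54 against DEX, p = 0.8 for DEX+SH4-54 against SH4-54 and p = 0.6 for SH4-54 against no drug. For DEX against no drug the exact permutation test also gave p = 0.1 for the shares of MCM2, MCM5 and MCM7, though not for MCM3 and MCM4. The smallest p was therefore not particular to MCM6.

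**Figure D4:**
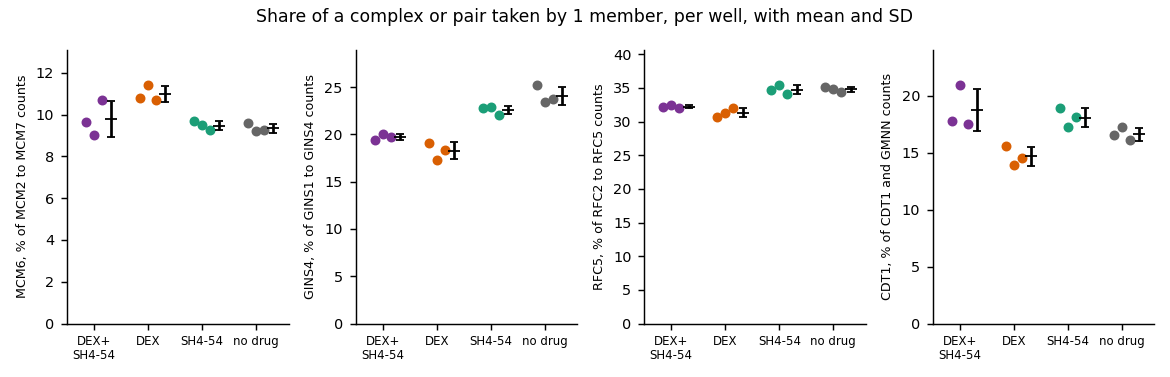
Points are wells and bars the mean ± SD of 3 wells; the axes give the percentage of counts that MCM6, GINS4 and RFC5 took of their complex, and CDT1 of CDT1 and GMNN together. The share of MCM6 is highest in DEX wells, and the shares of GINS4, RFC5 and CDT1 have their lowest means there.

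Of the 6 helicase activation genes, MCM10, GINS1 and GINS4 fell with DEX, and MCM10 and GINS4 rose when SH4-54 was added. GINS4 stood at 32.2, 34.5 and 30.2 CPM in DEX+SH4-54 wells, 29.2, 27.4 and 28.6 CPM in DEX wells, 41.5, 40.1 and 39.1 CPM in SH4-54 wells and 43.8, 42.3 and 42.4 CPM in no-drug wells. The wells formed an order with no overlap, DEX lowest, then DEX+SH4-54, then SH4-54, then no drug. The log2 fold change was -0.59 ± 0.051 (edgeR adjusted p = 2.14e-07) for DEX against no drug, -0.41 ± 0.050 (edgeR adjusted p = 1.17e-05) for DEX+SH4-54 against no drug and -0.32 ± 0.051 (edgeR adjusted p = 0.000154) against SH4-54, and 0.18 ± 0.052 (edgeR adjusted p = 0.0174) against DEX. SH4-54 alone was at -0.09 ± 0.050 (edgeR adjusted p = 0.465) against no drug. In GENCODE v29 models GINS4 shares 1159 exon bases with an antisense gene, so its counts are uncertain where strand was not used in counting.

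Of the counts of the 4 GINS genes, GINS4 took 19.4, 20 and 19.7% in DEX+SH4-54 wells, 19.1, 17.3 and 18.4% in DEX wells, 22.8, 22.9 and 22.1% in SH4-54 wells and 25.2, 23.4 and 23.7% in no-drug wells. Its share was lowest in DEX wells and highest in no-drug wells. GINS1 had a log2 fold change of -0.15 with DEX, GINS2 of 0.00 and GINS3 of -0.09, of which only that of GINS1 passed. CDC45 was at -0.02, and MCM10, which helps to start the helicase, fell with DEX (log2 fold change -0.16 ± 0.045, edgeR adjusted p = 0.0102) and rose (log2 fold change 0.14 ± 0.045, edgeR adjusted p = 0.0297) when SH4-54 was added.

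**Figure D5:**
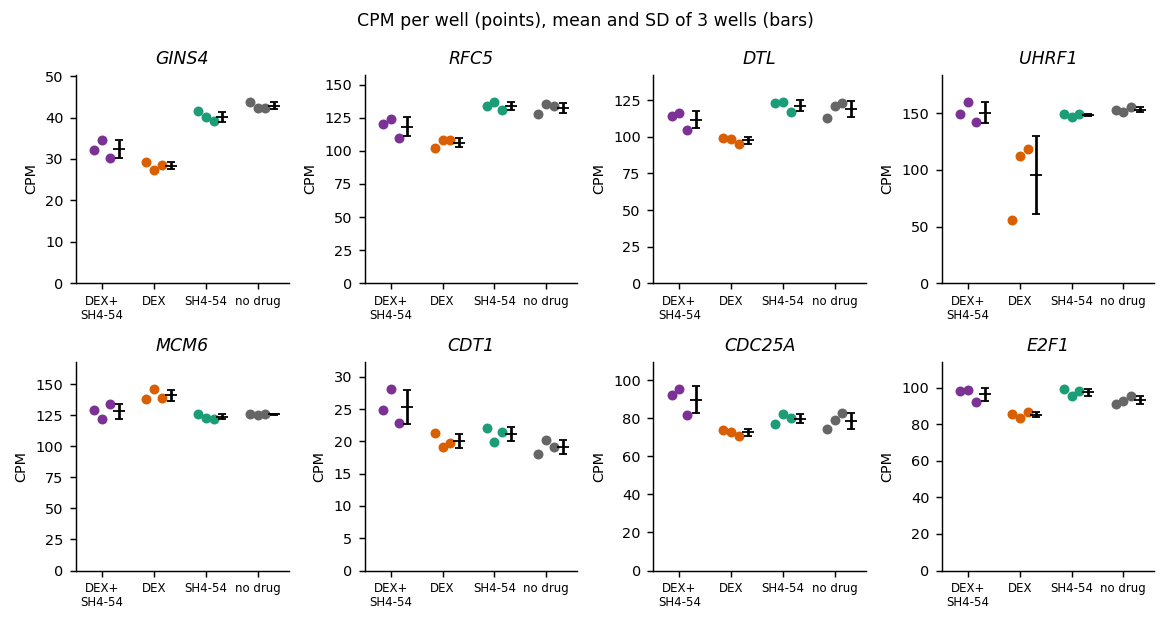
Points are the CPM of single wells for 8 members in the 4 groups, and bars are the mean ± SD of 3 wells. GINS4, RFC5, DTL, UHRF1 and E2F1 are lowest in DEX wells, MCM6 is highest there, and CDT1 is highest in DEX+SH4-54 wells.

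Of the 7 primase and polymerase genes, 3 fell with DEX (PRIM2, POLD1 and POLE). PRIM2 rose when SH4-54 was added, which at 14.3% of the class is near the 13% of all tested genes. PRIM2, the large subunit of primase, stood at 56.4, 60.4 and 54.6 CPM in DEX+SH4-54 wells, 52.7, 52.2 and 50.5 CPM in DEX wells, 61.6, 59.9 and 57.8 CPM in SH4-54 wells and 61.1, 58.4 and 63 CPM in no-drug wells. Its DEX wells lay below all others. PRIM2 had a log2 fold change of -0.23 ± 0.045 (edgeR adjusted p = 0.000674) for DEX against no drug and 0.14 ± 0.045 (edgeR adjusted p = 0.0327) for DEX+SH4-54 against DEX, the last lost in 8 of 19 alternatives. POLE, the catalytic subunit of the leading strand polymerase, stood at 64.1, 71.6 and 65.6 CPM in DEX+SH4-54 wells, 66.6, 64.8 and 61.2 CPM in DEX wells, 78.7, 73.5 and 71.5 CPM in SH4-54 wells and 74.6, 73.7 and 76.3 CPM in no-drug wells, with DEX wells below no-drug wells (log2 fold change -0.22 ± 0.048, edgeR adjusted p = 0.00168) and overlapping the DEX+SH4-54 wells.

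POLD1, the catalytic subunit of the lagging strand polymerase, stood at 89.7, 97.9 and 84.5 CPM in DEX+SH4-54 wells, 86.1, 79.4 and 85.2 CPM in DEX wells, 87.2, 88.4 and 89.6 CPM in SH4-54 wells and 89.3, 91.8 and 96.6 CPM in no-drug wells. Its DEX wells were the lowest against no drug (log2 fold change -0.15 ± 0.050, edgeR adjusted p = 0.0255). POLA1, which extends the primer, stood at 67.7, 67 and 65.7 CPM in DEX+SH4-54 wells, 67.2, 70.5 and 67.6 CPM in DEX wells, 74.1, 72.9 and 73.3 CPM in SH4-54 wells and 70.7, 70.9 and 72 CPM in no-drug wells, where DEX+SH4-54 wells lay below SH4-54 wells (log2 fold change -0.14 ± 0.032, edgeR adjusted p = 0.00331). PRIM1 (0.06), POLA2 (0.00) and POLE2 (0.04) had no call with DEX. PRIM2 has near-identical copies in the genome, so its counts may be shared with them.

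In the group of clamp, loader, RPA and Okazaki maturation genes, 4 of 9 fell with DEX (RFC3, RFC5, RPA1 and LIG1). All 9 had a log2 fold change below 0 with DEX. RFC2 and RFC5 rose when SH4-54 was added, 22.2% of the class beside 13% of all tested genes. RFC5 stood at 120, 124 and 110 CPM in DEX+SH4-54 wells, 102, 108 and 108 CPM in DEX wells, 134, 137 and 131 CPM in SH4-54 wells and 128, 135 and 134 CPM in no-drug wells. DEX wells were lowest, DEX+SH4-54 wells lay between them and the others, and SH4-54 and no-drug wells overlapped. The log2 fold change was -0.32 ± 0.044 (edgeR adjusted p = 2.98e-05) for DEX against no drug, 0.15 ± 0.044 (edgeR adjusted p = 0.021) for DEX+SH4-54 against DEX and -0.18 ± 0.044 (edgeR adjusted p = 0.00398) against SH4-54. Of the counts of RFC2 to RFC5, RFC5 took 32.2, 32.5 and 32% in DEX+SH4-54 wells, 30.7, 31.3 and 32% in DEX wells, 34.7, 35.4 and 34.1% in SH4-54 wells and 35.2, 34.8 and 34.4% in no-drug wells. Its share was lower in all wells with DEX than in all wells without it.

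PCNA, the clamp itself and the member with the highest level per kilobase, stood at 271, 268 and 268 CPM in DEX+SH4-54 wells, 248, 263 and 250 CPM in DEX wells, 263, 254 and 269 CPM in SH4-54 wells and 252, 260 and 261 CPM in no-drug wells. Its DEX and no-drug wells overlapped, with a log2 fold change of -0.02 ± 0.032 (edgeR adjusted p = 0.58). RPA1, the large subunit of the protein that coats single-stranded DNA, stood at 300, 308 and 302 CPM in DEX+SH4-54 wells, 291, 305 and 302 CPM in DEX wells, 337, 346 and 333 CPM in SH4-54 wells and 329, 337 and 322 CPM in no-drug wells, lower with DEX (log2 fold change -0.14 ± 0.030, edgeR adjusted p = 0.00167) and, in the presence of SH4-54, lower with it too (log2 fold change -0.16 ± 0.030, edgeR adjusted p = 6e-04). LIG1 stood at 53.8, 57.6 and 52.2 CPM in DEX+SH4-54 wells, 57.5, 51.5 and 56 CPM in DEX wells, 56, 56.1 and 56.8 CPM in SH4-54 wells and 63.8, 61.7 and 62.6 CPM in no-drug wells. All wells with a compound lay below the no-drug wells. The log2 fold change of LIG1 was -0.20 ± 0.046 (edgeR adjusted p = 0.00235) for both compounds, -0.19 ± 0.046 (edgeR adjusted p = 0.00344) for DEX and -0.16 ± 0.046 (edgeR adjusted p = 0.158) for SH4-54, which did not pass. RFC3 fell with DEX (log2 fold change -0.13 ± 0.047, edgeR adjusted p = 0.0416), a call lost in 11 of 19 alternatives, and RFC2 rose when SH4-54 was added (log2 fold change 0.13 ± 0.044, edgeR adjusted p = 0.0384), a call lost in 12 of 19. With DEX the log2 fold changes of RFC2 (-0.07), RFC4 (-0.09), RPA2 (-0.04) and FEN1 (-0.16) did not pass. FEN1 ran from 217 to 265 CPM among no-drug wells alone, and has a processed pseudogene of 95% identity.

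Nucleotide synthesis was the class in which every member fell with DEX, 4 of 4. RRM1 stood at 366, 371 and 342 CPM in DEX+SH4-54 wells, 355, 357 and 356 CPM in DEX wells, 390, 396 and 397 CPM in SH4-54 wells and 393, 418 and 420 CPM in no-drug wells. RRM2, the small subunit of ribonucleotide reductase, stood at 323, 331 and 300 CPM in DEX+SH4-54 wells, 305, 308 and 295 CPM in DEX wells, 364, 359 and 353 CPM in SH4-54 wells and 327, 343 and 347 CPM in no-drug wells. For both genes every DEX well lay below every SH4-54 and no-drug well. RRM1 had a log2 fold change of -0.20 ± 0.035 (edgeR adjusted p = 0.000219) for DEX against no drug and -0.13 ± 0.035 (edgeR adjusted p = 0.00726) for DEX+SH4-54 against SH4-54. For RRM2 these were -0.16 ± 0.038 (edgeR adjusted p = 0.00248) and -0.17 ± 0.038 (edgeR adjusted p = 0.00193). None of the 4 passed for DEX+SH4-54 against DEX.

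TK1, thymidine kinase, stood at 149, 156 and 140 CPM in DEX+SH4-54 wells, 144, 142 and 148 CPM in DEX wells, 144, 154 and 157 CPM in SH4-54 wells and 155, 163 and 165 CPM in no-drug wells, and fell with DEX (log2 fold change -0.16 ± 0.043, edgeR adjusted p = 0.00854). TYMS, thymidylate synthase, stood at 18.6, 24 and 22.2 CPM in DEX+SH4-54 wells, 18.7, 20 and 19 CPM in DEX wells, 23, 24.4 and 22.5 CPM in SH4-54 wells and 24, 22 and 21.7 CPM in no-drug wells. The DEX wells lay below the no-drug wells (log2 fold change -0.23 ± 0.077, edgeR adjusted p = 0.0242), whereas the DEX+SH4-54 wells ran across both. The TYMS call was lost without DEX replicate 1, DEX replicate 3 or no-drug replicate 1. TYMS shares 967 exon bases with ENOSF1 on the opposite strand, so its counts may include that gene where strand was not used.

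The chromatin assembly class held CHAF1A and CHAF1B, of the histone chaperone, and UHRF1, which brings the maintenance DNA methyltransferase to new DNA. Of these 3, CHAF1A and UHRF1 fell with DEX and rose when SH4-54 was added. CHAF1A, the large subunit of the chaperone that places histones behind the fork, stood at 59.6, 63.3 and 58.2 CPM in DEX+SH4-54 wells, 52.3, 49.9 and 51.7 CPM in DEX wells, 59.8, 62.6 and 61.9 CPM in SH4-54 wells and 60.2, 59.1 and 61.6 CPM in no-drug wells. DEX wells lay below all other wells, which overlapped one another. CHAF1A had a log2 fold change of -0.23 ± 0.040 (edgeR adjusted p = 0.000241) for DEX against no drug and 0.23 ± 0.040 (edgeR adjusted p = 0.000944) for DEX+SH4-54 against DEX. CHAF1B, its partner, stood at 30.1, 33.2 and 29.8 CPM in DEX+SH4-54 wells, 31.7, 28.6 and 28.4 CPM in DEX wells, 32, 30.9 and 32.3 CPM in SH4-54 wells and 32.4, 34.1 and 30.9 CPM in no-drug wells and had no call, with -0.14 ± 0.058 (edgeR adjusted p = 0.0684) for DEX.

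UHRF1 stood at 149, 160 and 142 CPM in DEX+SH4-54 wells, 55.7, 112 and 118 CPM in DEX wells, 149, 147 and 149 CPM in SH4-54 wells and 153, 151 and 155 CPM in no-drug wells. All DEX wells were below all others, and DEX replicate 1 was far below the other DEX wells. The log2 fold change was -0.68 ± 0.175 (edgeR adjusted p = 0.00499) for DEX against no drug and 0.66 ± 0.175 (edgeR adjusted p = 0.0128) for DEX+SH4-54 against DEX. Without DEX replicate 1 these were -0.41 (edgeR adjusted p = 7.82e-06) and 0.39 (edgeR adjusted p = 0.000184). In that well 7 of 8063 genes with a mean of at least 500 counts lay more than 2-fold from the rest of its group, and UHRF1 was the 1 member among them. A processed pseudogene matches UHRF1 at 99.4% over 1423 bases, so reads could be split between the copies.

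Of the 5 E2F and S-phase entry regulators, E2F1, E2F8 and DTL fell with DEX, and E2F1, CDC25A and DTL rose when SH4-54 was added. E2F1, an activator of these genes, stood at 98.1, 98.7 and 92.4 CPM in DEX+SH4-54 wells, 85.5, 83.7 and 86.6 CPM in DEX wells, 99.3, 95.6 and 98 CPM in SH4-54 wells and 91.2, 92.6 and 95.6 CPM in no-drug wells. The DEX wells were lowest. E2F1 fell against no drug (log2 fold change -0.13 ± 0.035, edgeR adjusted p = 0.00776), and DEX+SH4-54 lay above DEX (log2 fold change 0.18 ± 0.035, edgeR adjusted p = 0.00221). CDC25A stood at 92.2, 95.3 and 81.9 CPM in DEX+SH4-54 wells, 73.8, 73 and 70.7 CPM in DEX wells, 77.1, 82 and 80.2 CPM in SH4-54 wells and 74.3, 78.8 and 82.9 CPM in no-drug wells. DEX wells were below all others, and the 2 highest wells were DEX+SH4-54 wells, though the third overlapped the SH4-54 and no-drug wells. For CDC25A the log2 fold change was -0.12 ± 0.053 (edgeR adjusted p = 0.0876) for DEX against no drug, 0.31 ± 0.053 (edgeR adjusted p = 0.000976) for DEX+SH4-54 against DEX, 0.17 ± 0.053 (edgeR adjusted p = 0.019) against SH4-54 and 0.19 ± 0.053 (edgeR adjusted p = 0.00915) against no drug. The call against SH4-54 was lost without SH4-54 replicate 1, combination replicate 1 or combination replicate 2. That of DEX+SH4-54 against no drug was lost without no-drug replicate 1.

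DTL stood at 114, 116 and 105 CPM in DEX+SH4-54 wells, 99.1, 98.7 and 94.8 CPM in DEX wells, 123, 124 and 117 CPM in SH4-54 wells and 113, 121 and 123 CPM in no-drug wells. DEX wells were lowest, and the DEX+SH4-54 wells overlapped the no-drug wells. DTL had a log2 fold change of -0.29 ± 0.044 (edgeR adjusted p = 9.24e-05) for DEX against no drug and 0.19 ± 0.044 (edgeR adjusted p = 0.00561) for DEX+SH4-54 against DEX. E2F8 stood at 23.6, 23.2 and 22.3 CPM in DEX+SH4-54 wells, 24.5, 23.4 and 23.1 CPM in DEX wells, 30.8, 28.2 and 28.8 CPM in SH4-54 wells and 25.1, 27.6 and 28.3 CPM in no-drug wells. Here the DEX+SH4-54 wells were as low as the DEX wells, and both groups lay below the SH4-54 and no-drug wells. E2F8 had a log2 fold change of -0.19 ± 0.056 (edgeR adjusted p = 0.0117) for DEX against no drug and -0.35 ± 0.056 (edgeR adjusted p = 0.000162) for DEX+SH4-54 against SH4-54. E2F2, an activator with the lowest level per kilobase of all members, ran from 5.87 to 7.9 CPM over the 12 wells and had no call.

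Whether the effect of DEX differed with SH4-54 was tested by the interaction term. It passed for 2 members, with 15 at an unadjusted p under 0.05 where 21.1% of all tested genes had such a p. Of all tested genes 2.44% were called above 0 and 1.46% below. They were CDC25A, at 0.29 ± 0.075 (edgeR adjusted p = 0.0475), and GINS4, at 0.27 ± 0.072 (edgeR adjusted p = 0.048). For both the effect of DEX was more positive with SH4-54 than without it. Both lay just under the threshold, and the calls were lost in 12 and 13 of 18 alternatives. Without combination replicate 3 the term passed for 11 members above 0 and 1 below, and for 0 or 1 member without any other single library. Among all tested genes the calls also moved with a library left out, from 135 to 833 above 0 and 68 to 1213 below. With all libraries they were 346 and 207. The difference did not pass for UHRF1, at 0.70 ± 0.245 (edgeR adjusted p = 0.117), MCM2, at 0.21 ± 0.061 (edgeR adjusted p = 0.0739), or CHAF1A, at 0.21 ± 0.057 (edgeR adjusted p = 0.0556). Each passed in 2 of 18 alternatives. For UHRF1 these were the fit without DEX replicate 1, at 0.43 (edgeR adjusted p = 0.00652), and that with no count filter, at 0.70. MCM2 and CHAF1A passed without combination replicate 3, and also MCM2 with no count filter and CHAF1A with a stricter one. Over the alternatives the edgeR or DESeq2 adjusted p ran from 0.00652 to 0.238 for UHRF1.

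Beyond the 44 members, 58 other genes of the same pathway were counted. With DEX, 33 (56.9%) fell and 7 (12.1%) rose, where 23.2% and 21.9% of all tested genes did. SH4-54 alone called 0, where 0.331% of all tested genes fell and 0.268% rose. DEX+SH4-54 had 29 (50%) lower and 10 (17.2%) higher than no drug, where 21.6% and 21.1% of all tested genes were, and 27 (46.6%) lower and 5 (8.62%) higher than SH4-54, where 20.3% and 20.1% were. Against DEX it had 6 (10.3%) lower and 8 (13.8%) higher, which is near the 13.5% and 13% of all tested genes. The interaction called 0, with 7 (12.1%) at an unadjusted p under 0.05, below the 21.1% of all tested genes with such a p, and 1 by DESeq2, and without combination replicate 3 it called 1 above 0 and 3 below. Without combination replicate 2 the rises over DEX numbered 4 and the falls 3, without DEX replicate 3 the rises numbered 5, and without DEX replicate 2 the falls numbered 2. Without no-drug replicate 1 the rises of both compounds over no drug numbered 6. For these comparisons the ranges over all tested genes with a library left out are given above.

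The lists that follow are counted for DEX against no drug, where 23.2% of all tested genes fell and 21.9% rose. Of the origin firing genes 8 of 9 fell with DEX, by smallest p DBF4B (-0.67), MTBP (-0.40) and DBF4 (-0.25). DBF4 activates the kinase CDC7, which phosphorylates the MCM ring. Of the other chromatin and methylation genes 6 of 6 fell, among them ASF1B (-0.45), a histone chaperone, and DNMT1 (-0.32), the maintenance methyltransferase that UHRF1 recruits. DNMT1 stood at 182, 195 and 186 CPM in DEX+SH4-54 wells, 180, 166 and 172 CPM in DEX wells, 221, 213 and 208 CPM in SH4-54 wells and 218, 213 and 217 CPM in no-drug wells, lowest in DEX wells, and rose (log2 fold change 0.12 ± 0.038, edgeR adjusted p = 0.027) when SH4-54 was added. Of the other fork and clamp genes 8 of 17 fell, led by DNA2 (-0.40) and ATAD5 (-0.40), and POLD4 (0.76) and POLD2 (0.25), further subunits of the lagging strand polymerase, rose.

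The other nucleotide pool genes gave 4 falls, among them DCK (-0.38), and 2 rises, of TYMP (0.71), which degrades thymidine, and DUT (0.12). In the E2F and RB list 6 of 10 fell. The atypical repressor E2F7 stood at 63.7, 70 and 62.7 CPM in DEX+SH4-54 wells, 59.7, 58.5 and 51.4 CPM in DEX wells, 131, 118 and 112 CPM in SH4-54 wells and 110, 111 and 112 CPM in no-drug wells, so all wells with DEX lay far below all wells without it. E2F7 had a log2 fold change of -0.97 ± 0.063 (edgeR adjusted p = 9.44e-09) for DEX against no drug and -0.88 ± 0.062 (edgeR adjusted p = 4.3e-08) in the presence of SH4-54. RB1 (-0.19) and TFDP2 (-0.23) fell with DEX.

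In the list of other licensing genes, where 3 rose with DEX and 1 fell, GMNN, which encodes geminin, the inhibitor of CDT1, stood at 115, 106 and 107 CPM in DEX+SH4-54 wells, 115, 119 and 116 CPM in DEX wells, 94, 96.2 and 97.3 CPM in SH4-54 wells and 91.6, 97.4 and 99.9 CPM in no-drug wells. The DEX wells were highest, with 1 combination well level with them. GMNN rose with DEX (log2 fold change 0.28 ± 0.040, edgeR adjusted p = 4.14e-05) and with DEX in the presence of SH4-54 (log2 fold change 0.19 ± 0.040, edgeR adjusted p = 0.00135). Of the counts of CDT1 and GMNN together, CDT1 made up 17.8, 20.9 and 17.5% in DEX+SH4-54 wells, 15.6, 13.9 and 14.5% in DEX wells, 18.9, 17.2 and 18.1% in SH4-54 wells and 16.5, 17.2 and 16.1% in no-drug wells. The DEX wells had the lowest share, and the exact permutation test gave p = 0.1, the smallest it can give, for DEX against no drug, for DEX+SH4-54 against DEX and for SH4-54 against no drug, where the share was higher with SH4-54. For DEX+SH4-54 against SH4-54 the exact permutation test gave p = 0.7. MCMBP, which binds the MCM ring, and ORC3 rose with DEX by 0.16 and 0.15.

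Levels were compared between genes per kilobase of exon, with exon lengths from GENCODE v29. The length joins the exons of all annotated transcripts of a gene, 16609 bases for POLE. A gene with many annotated exons therefore gets a lower level, and the order depends on the annotation. In no-drug wells PCNA was highest at 175 ± 3.4 CPM per kilobase (SD, n = 3), followed by MCM3 at 101 ± 1.9, FEN1 at 100 ± 10, RRM1 at 98.2 ± 3.6 and TK1 at 86.5 ± 2.8 CPM per kilobase. MCM3, FEN1 and RRM1 lay within their spread of each other. At the other end stood E2F2 at 1.29 ± 0.062, POLA2 at 4.4 ± 0.11, POLE at 4.51 ± 0.084 and GINS3 at 4.56 ± 0.17 CPM per kilobase, of which POLA2, POLE and GINS3 lay within their spread of their neighbours. By GENCODE v29 models MCM2 shares 1113 exon bases with an antisense gene, and RRM2 shares 1077 and POLA2 2012 exon bases with another gene model of the same strand, which makes their counts uncertain too. In DEX wells PCNA stood at 173 ± 5.6 and E2F2 at 1.34 ± 0.11 CPM per kilobase.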

How the data were processed

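Per the labels' protocols, total RNA freed of ribosomal RNA went into stranded libraries that were read as 50-base single ends. The authors deposited read counts, whole numbers per gene symbol, for 12 libraries in 1 table. HISAT2 2.1.0, SAMtools and featureCounts 1.5.1, with hg19 and GRCh37, are named in the submitters' processing notes. Not given in the sources used here are the annotation, the strand setting and what was done with reads of several matches, which leaves overlapping genes and near copies uncertain.

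All 12 libraries entered 1 edgeR fit (edgeR 4.0.16 in R 4.3.3, filterByExpr by group, TMM, glmQLFit and glmQLFTest), with 8 residual degrees of freedom. P-values were adjusted by Benjamini and Hochberg's method over all 14184 genes, and the threshold was 0.05. A standard error is the size of the log2 fold change divided by the root of its F statistic. Tests were tried on simulated data. Shares of a complex were tested by a two-sided exact permutation test over wells. Groups and replicate numbers came from the sample titles. In all 18 pairs of same-numbered libraries the correlation of deviations lay between -0.0975 and 0.0926, so the numbers were not taken as pairs. Within groups, libraries differed by more than sampling noise.

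The alternatives were another scaling (size factors of DESeq2 within edgeR), another test (the Wald test of DESeq2 1.42.0), another count filter (none, or 1 CPM in at least 3 libraries with a mean count of 20), a replicate block, fits of only the groups compared, fits without the 10 most abundant genes, and fits without each library. The members were picked by symbol alone, but they and the lists were chosen with earlier results of these data known. All members were accounted for. Values in every well were given, per class, for the member with the smallest p in each comparison and for CDC6, CDT1, MCM2, PCNA, RRM2 and E2F1, and up to 5 called rises and falls were named per comparison. Other pathway genes were counted by list, with up to 3 called genes of each named. The well values of MCM6, UHRF1, GMNN, DNMT1 and E2F7, and the names POLD2 and DUT, were added after their values were seen. Promoters are RefSeq's (GRCh38.p14), and exon lengths, overlaps and near copies (BLAST 2.17.0, at least 95% identity over 200 bases) come from GENCODE v29, a later build than the notes name.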

Additional observations from a re-analysis of the deposited data

Results flagged for a closer look

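CDC25A was singled out because the effect of DEX differed between wells with and without SH4-54, by an interaction term of 0.29 on the log2 scale. GINS4 was singled out for the same reason, with an interaction term of 0.27 on the log2 scale. Their well values stand in the report.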

How the results depend on the processing

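No called member changed sign in any alternative. Of the calls, 16 of 24 for DEX against no drug, 8 of 13 for DEX+SH4-54 against no drug, 8 of 16 against DEX, 9 of 16 against SH4-54 and 0 of 2 for the interaction held in every alternative. The numbers of falls with DEX ran from 18 to 26 with a library left out and from 21 to 25 otherwise. Over all tested genes these ran from 2860 to 3387 and from 2816 to 3356. Members above 0 in the interaction numbered 0 with DESeq2 size factors, 1 with the DESeq2 Wald test and 4 with no count filter, against 2. With the compared groups alone 0 members fell for DEX+SH4-54 against DEX, in place of 1. The cause was not tested.

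Leaving out each library gave 1 to 7 rises and 7 to 14 falls for DEX+SH4-54 against no drug, 8 to 20 rises and 0 to 1 falls against DEX, 0 to 6 rises and 9 to 13 falls against SH4-54, and 0 to 11 members above 0 and 0 to 1 below in the interaction. The highest counts of rises came without combination replicate 3. The numbers for single libraries, and the ranges over all tested genes, stand in the report.

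With the replicate number as a block, the interaction passed for 0 members, and it moved no other member count by more than 1.5 times. Of the 12 libraries, 2 correlated best with a library of their own number, which is no hint of pairing. Another scaling moved the median of all genes by at most 0.009 on the log2 scale. Standard errors of the members had a median of 0.045 on the log2 scale, and 0.064 for the interaction. With 3 wells a group and this spread between wells, differences much below 0.1 were not detectable. Larger differences could go uncalled too, depending on the comparison and the gene. LIG1 at -0.16 with SH4-54 alone did not pass (edgeR adjusted p = 0.158). Nor did MCM2 at 0.21 in the interaction (edgeR adjusted p = 0.0739). What depth contributes was not tested.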
